A study of Homo sapiens with 16 samples.

Results

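The 44 genes described here act in G2 and mitosis, the stages of the cell cycle in which a cell that has copied its DNA checks it, condenses its chromosomes, separates them and divides. They were chosen by name, as a list of genes of these stages, with earlier results of these data known. All 44 were found in both expression tables of the study, of 17318 genes in the first table and 18168 in the second, and where a symbol was repeated the row with the highest mean was used. All 44 also passed the filter on low values in both tables, with single values from 3.34 log2 CPM (CDC25C) to 9.40 (MKI67) in the first and from 3.32 (CDC25C) to 10.54 (MKI67) in the second. CPM stands for counts scaled to a common library total, and a difference of 1 on the log2 scale is a doubling.

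The tumours were grown from U87, an established human glioblastoma line (labelled wild type, carrying luciferase), placed in the brain of nude mice, a strain that lacks normal T cells. Every mouse received exosomes, small vesicles from the cell source that the labels abbreviate MSC, loaded with an siRNA: human anti-MYC siRNA #1 (Myc1, n = 3) or scramble #1 (Scr1, n = 4) in experiment 1, and human anti-MYC siRNA #2 (Myc2, n = 5) or scramble #2 (Scr2, n = 4) in experiment 2. In experiment 1 dosing started on day 28 and went on every other day, with 1e9 exosomes in 100 µl given into the retro-orbital sinus, and the schedule of experiment 2 is not given in the sources used here. Tumours were taken when a mouse met the conditions for euthanasia, not on a fixed day, and each of the 16 RNA-seq libraries comes from its own mouse. The host tissue is mouse, the tumour is a single human line, and the age of the mice is not given in the sources used here. In RNA from a whole tumour, fewer cells in G2 or mitosis and less RNA of these genes per cell cannot be told apart.

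Cells enter mitosis when CDK1, bound to a B-type cyclin, is switched on by CDC25 phosphatases, and PLK1 and the Aurora kinases act beside it. The chromosomal passenger complex and the kinetochore then join chromosomes to spindle microtubules, and the spindle checkpoint holds back the anaphase-promoting complex until every chromosome is attached. The complex then marks cyclin B and securin for destruction, the sister chromatids part, and the cell is cleaved at the spindle midzone. Most genes of these steps are transcribed late in the cell cycle. Many are held down in resting cells by a repressor assembly called DREAM and are driven later by a complex of MuvB with MYBL2 and FOXM1, which act through a promoter element called the CHR (cell cycle genes homology region) and through CCAAT boxes bound by NF-Y. Glioblastoma is a fast-dividing tumour, and MKI67 is the antigen that pathologists stain to judge the share of dividing cells.

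Promoters of 6 members are printed to show these elements. Whether the elements had a part in the levels described further on was not tested. Each is the stretch of 140 bases before the RefSeq start site (GRCh38.p14), 5′ to 3′ on the strand of the gene, with the CHR (TTTGAA or TTCGAA) and the CCAAT box (CCAAT), on either strand, in capitals. The first 3 belong to the members with the smallest p-values in experiment 2 among those given library by library whose promoter was in the table used, and the last 3 are shown because both elements lie before their start. The stretches are PTTG1 chr5:160421715-160421854 on the plus strand, CDC25C chr5:138338356-138338495 on the minus strand, CCNB1 chr5:69167010-69167149 on the plus strand, CCNB2 chr15:59105006-59105145 on the plus strand, PLK1 chr16:23678749-23678888 on the plus strand and MKI67 chr10:128126424-128126563 on the minus strand.
PTTG1: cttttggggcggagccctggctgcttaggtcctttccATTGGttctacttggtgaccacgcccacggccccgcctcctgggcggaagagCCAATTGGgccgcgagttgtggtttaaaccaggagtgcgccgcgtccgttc
CDC25C: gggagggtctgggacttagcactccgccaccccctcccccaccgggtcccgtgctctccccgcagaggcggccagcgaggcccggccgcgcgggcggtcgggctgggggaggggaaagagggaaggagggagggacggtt
CCNB1: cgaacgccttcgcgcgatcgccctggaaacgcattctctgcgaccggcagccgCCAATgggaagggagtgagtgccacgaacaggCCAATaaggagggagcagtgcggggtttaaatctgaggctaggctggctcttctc
CCNB2: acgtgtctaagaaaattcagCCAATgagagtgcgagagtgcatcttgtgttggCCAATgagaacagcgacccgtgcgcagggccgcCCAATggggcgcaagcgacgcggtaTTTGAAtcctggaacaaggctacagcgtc
PLK1: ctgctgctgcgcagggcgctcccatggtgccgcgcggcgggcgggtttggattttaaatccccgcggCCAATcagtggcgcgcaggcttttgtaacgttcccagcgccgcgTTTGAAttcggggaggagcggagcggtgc
MKI67: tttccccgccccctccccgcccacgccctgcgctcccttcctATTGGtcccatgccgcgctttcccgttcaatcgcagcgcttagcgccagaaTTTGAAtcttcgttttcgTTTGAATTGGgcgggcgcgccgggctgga
PTTG1 and CCNB1 have CCAAT boxes and no CHR of these letters, CDC25C has neither in this stretch, and in CCNB2, PLK1 and MKI67 a CHR begins 29 bases before the start. CCNB2 shows 3 CCAAT boxes in the stretch. In PTTG1, 2 CCAAT matches on opposite strands share bases, and in MKI67 a CHR and a CCAAT match share a base. Of the 44 members 35 were found in the RefSeq promoter table, which covers 250 bases before to 50 after a start. A CHR was present in 26 of the 35 (74.3%) and in 16.6% of all 27305 promoters, and a CCAAT box in 27 (77.1%) and in 35.7%. Both lay in 22 of the 35 member promoters (62.9%), and in 6.58% of all promoters. At least 2 CCAAT boxes were found in 18 (51.4%) and in 11.3%. These are matches of letters and no measurement of binding.

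Library depth, estimated from the spacing of low values, was lowest in Scr1 replicate 3 (3.35 M reads, the other libraries of experiment 1 holding 15.2 to 23.8 M) and in Scr2 replicate 4 (10.5 M, the others of experiment 2 holding 15.2 to 29.5 M). MYC, the target of the siRNAs, had a log2 difference of -0.83 in experiment 1 (95% interval -2.06 to 0.40, limma adjusted p = 0.996) and of 0.57 in experiment 2 (0.10 to 1.04, limma adjusted p = 0.370). In experiment 2 the target was thus higher in the libraries labelled Myc2, which goes against the label, and directions there are those of libraries as labelled. The 8 markers chosen for U87, such as VIM and CD44, were all at 7.36 log2 CPM or more. They summed to 13590 to 14761 CPM in Myc1, 12064 to 14896 in Scr1, 13086 to 14989 in Myc2 and 8313 to 15744 in Scr2. Their mean was lowest in Scr2 replicate 4, at 9.48 log2 CPM, followed in experiment 2 by 10.1 in Scr2 replicate 1. Among markers of host cells, GFAP reached 1.64 log2 CPM at most, MBP 0.35 and RBFOX3 0.04, while others were well measured: CNP of the oligodendrocyte list reached 7.61, CD68 of the microglia list 8.58 and PDGFRB of the pericyte list 8.50. Summed over 6 of 9 astrocyte markers present, the level was 325 to 405 CPM in Myc1, 144 to 401 in Scr1, 204 to 842 in Myc2 and 170 to 491 in Scr2, and most of it came from GJA1 and SLC1A3. Microglia and macrophage markers, 3 of 8 present, summed to 332 to 403 CPM in Myc1, 247 to 347 in Scr1, 178 to 277 in Myc2 and 163 to 268 in Scr2. Pericyte markers, 5 of 5 present in experiment 1 and 4 in experiment 2, summed to 237 to 329, 259 to 424, 309 to 437 and 179 to 416 CPM in the same groups, oligodendrocyte markers to 105 to 196 CPM over all libraries, and endothelial and neuronal markers to at most 12.9 and 26.8 CPM. Most of the microglia and macrophage sum came from CD68, with ITGAM at most -1.75 log2 CPM and PTPRC at most 0.14. Of the oligodendrocyte markers 2 of 6 were present, and most of their sum came from CNP. Whether these levels came from host cells or from U87 was not tested. The part of these lists in the results that follow was not tested.

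Compared per kilobase of transcript, so that genes of different length can be set side by side, the 2 members with the highest levels were the same in both experiments. PTTG1, the securin that holds the separase enzyme inactive, had a mean level of 8.26 log2 CPM per kb in experiment 1 and 8.08 in experiment 2. UBE2C, the ubiquitin-conjugating enzyme of the anaphase-promoting complex, followed with 7.62 and 8.02. CDK1 stood at 6.43 and 7.00. At the other end were CENPE, CCNF and TTK in experiment 1, with 2.43, 2.72 and 2.85 log2 CPM per kb, and CCNF, CDC25C and TTK in experiment 2, with 3.14, 3.26 and 3.39.

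In experiment 1 the members did not lean to one side. Their median log2 difference, Myc1 minus Scr1, was -0.04, beside -0.00283 over all 13933 genes tested, with 24 members below 0 (54.5%, beside 50.5% of all genes) and 20 above. The differences ran from -0.54 for INCENP to 0.79 for HMMR. Limma called 0 members at an adjusted p under 0.05, as it called 0% of all genes, of which 485 had an unadjusted p under 0.05. At an unadjusted p under 0.05, 0 members were lower, beside 1.52% of all genes, and 0 were higher, beside 1.96%. The adjusted p of the members lay between 0.996 and 1.00. In CDC25B alone every Myc1 library was below every Scr1 library (1 of 44, 2.27%, beside 2.27% of all genes), and in 0 members were they all above, beside 1.94%.

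In experiment 2 the members lay mostly below 0. Their median log2 difference, Myc2 minus Scr2, was -0.36, beside -0.0183 over all 14208 genes tested, and 40 of 44 (90.9%) were below 0, beside 51.8% of all genes. The 4 above 0 were HMMR (0.17), INCENP (0.11), MKI67 (0.07) and CCNF (0.02), and the lowest was CDC25C (-0.99). Limma called 0 members at an adjusted p under 0.05 and 0% of all genes, and the smallest adjusted p, 0.370, was the same for the members and for all genes. At an unadjusted p under 0.05, 16 members (36.4%) were lower, beside 6.36% of all genes, and 0 were higher, beside 7.00%. In 5 members (11.4%) every Myc2 library was below every Scr2 library, beside 1.61% of all genes, namely CCNB1, CCNB2, CDC20, PTTG1 and FAM64A, and in 0 members were they all above, beside 1.40%. None of these differences passed adjustment over all genes tested, so they are given as values.

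**Figure D1:**
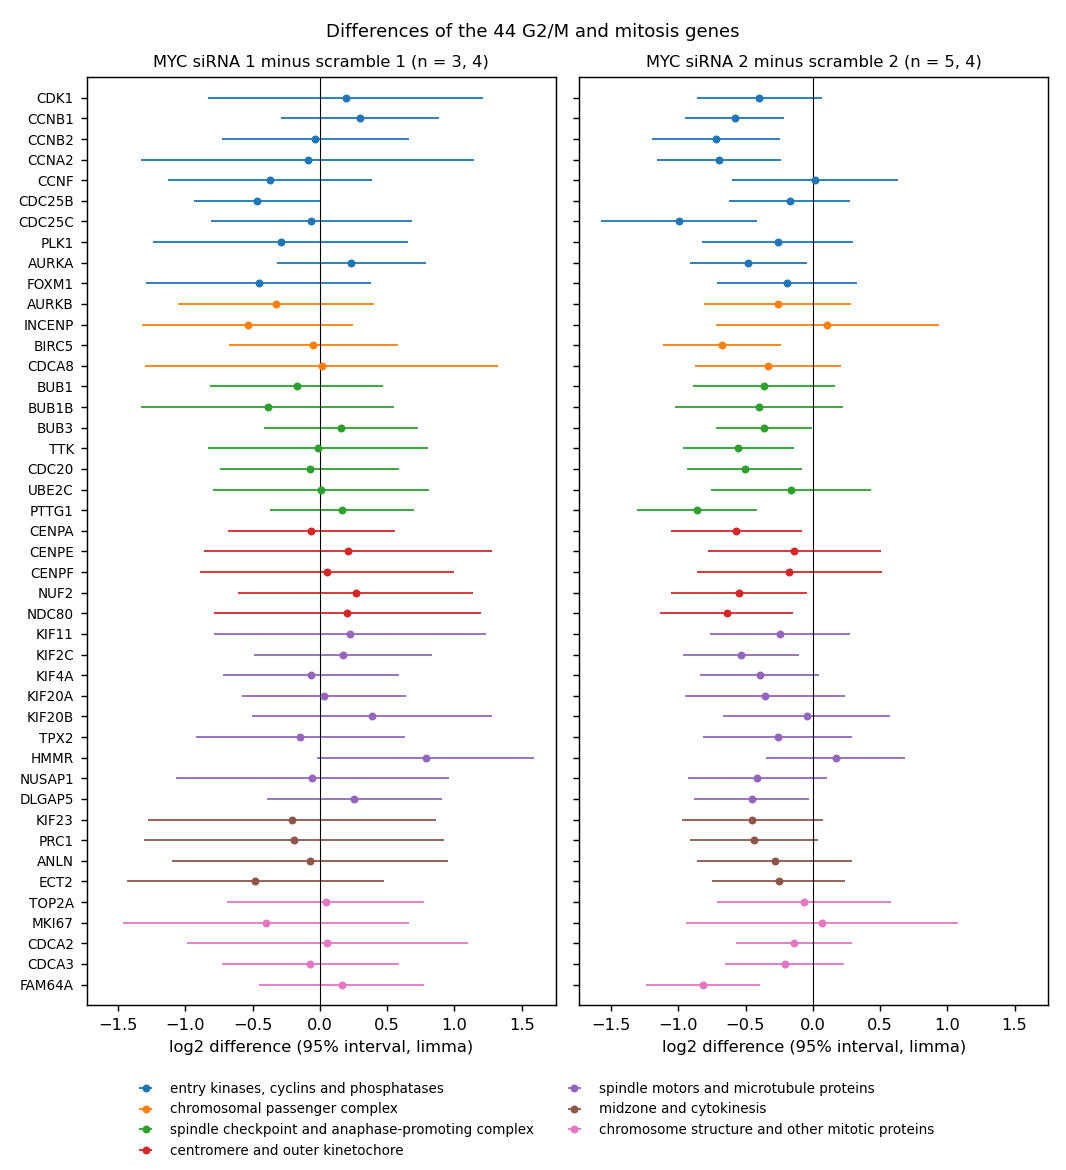
Log2 difference of each of the 44 members, MYC siRNA minus scramble, with its 95% interval from limma, in experiment 1 (left, n = 3 and 4) and experiment 2 (right, n = 5 and 4), coloured by role. On the left the points lie on both sides of 0 (24 below, 20 above) with wide intervals, and on the right 40 of 44 lie below 0.

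The first group by role holds 10 genes that take the cell into mitosis: kinases, cyclins, phosphatases and the factor FOXM1. In experiment 2, 9 of 10 were below 0 with a median log2 difference of -0.44, and 5 of them (CCNB1, CCNB2, CCNA2, CDC25C and AURKA) were lower at an unadjusted p under 0.05, beside 6.36% of all genes. In experiment 1, 7 of 10 were below 0, with a median of -0.08 and none at that p.

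CCNB1 is cyclin B1, the main partner of CDK1 in mitosis. In experiment 2 it stood at 7.90, 8.23, 7.85 and 8.16 log2 CPM in Scr2 replicates 1 to 4 and at 7.05, 7.52, 7.47, 7.56 and 7.67 in Myc2 replicates 1 to 5. Every Scr2 library lay above every Myc2 library, and the log2 difference was -0.58 (95% interval -0.95 to -0.21, limma adjusted p = 0.370, exact two-sided permutation p = 0.00794, the smallest this design gives). For experiment 1, the Myc1 libraries held 7.80, 7.59 and 7.32 log2 CPM and the Scr1 libraries 7.64, 7.77, 6.59 and 7.09. The groups overlapped, with Scr1 replicate 3 lowest, and the log2 difference was 0.30 (-0.29 to 0.88).

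CCNB2, cyclin B2, was named after its values were seen, since its groups did not overlap in experiment 2. It stood at 7.17, 6.96, 6.64 and 7.33 log2 CPM in Scr2 and at 5.74, 6.09, 6.55, 6.61 and 6.53 in Myc2. The narrowest gap was that between Scr2 replicate 3 and Myc2 replicate 4, and the log2 difference was -0.72 (-1.20 to -0.24, limma adjusted p = 0.370). The experiment 1 difference was -0.03 ± 0.32 (SE).

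The kinase CDK1 itself overlapped between groups in both experiments. In experiment 2 it was at 8.21, 8.58, 7.84 and 8.11 log2 CPM in Scr2 and at 7.36, 7.58, 7.83, 8.21 and 7.98 in Myc2, a log2 difference of -0.40 (-0.86 to 0.07, limma adjusted p = 0.383). Myc2 replicate 4 was as high as Scr2 replicate 1. The Scr1 libraries of experiment 1 spanned all others, from 6.21 in replicate 3 to 8.33 in replicate 1, with 7.83 and 6.89 in replicates 2 and 4, and the Myc1 libraries held 7.88, 7.32 and 7.32, a log2 difference of 0.19 (-0.83 to 1.21).

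CDC25C and CDC25B are phosphatases that remove the inhibitory marks from CDK1. CDC25C had the largest difference of the 44 members in experiment 2. Its Scr2 values were 4.94, 5.07, 4.26 and 5.33 log2 CPM and its Myc2 values 3.32, 3.72, 4.27, 4.27 and 3.96. The groups met only at Scr2 replicate 3, which lay just under the highest Myc2 libraries, and the log2 difference was -0.99 (-1.58 to -0.41, limma adjusted p = 0.370, exact permutation p = 0.0238). The experiment 1 difference of CDC25C was -0.06 ± 0.35 (SE), with Myc1 at 4.23, 3.88 and 4.33 and Scr1 at 5.05, 4.17, 3.34 and 4.30, so that Scr1 replicates 1 and 3 were the extremes.

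CDC25B, by contrast, had the smallest p of the members in experiment 1. The Myc1 libraries were close together, at 6.73, 6.57 and 6.70 log2 CPM, and the Scr1 libraries held 7.29, 6.75, 7.01 and 7.50. All Myc1 values lay under all Scr1 values, Myc1 replicate 1 by a small margin under Scr1 replicate 2, and the log2 difference was -0.47 (-0.94 to 0.00301, limma adjusted p = 0.996, exact permutation p = 0.0571). In experiment 2 it was -0.17 ± 0.20 (SE), with 7.25, 7.77, 7.26 and 6.80 in Scr2 against 6.99, 7.03, 7.42, 7.22 and 6.83 in Myc2, and the groups overlapped.

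Of the other members of this group, CCNA2 (cyclin A2, which acts in S phase and G2) differed by -0.70 ± 0.21 (SE) in experiment 2 and AURKA, the kinase of the spindle poles, by -0.48 ± 0.20. PLK1 differed by -0.26 ± 0.26, FOXM1 by -0.19 ± 0.24 and CCNF, cyclin F, a substrate receptor for ubiquitin ligation, by 0.02 ± 0.28, each with an interval that holds 0. In experiment 1 these 5 ranged from -0.46 (FOXM1) to 0.23 (AURKA).

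The chromosomal passenger complex is the Aurora B kinase (AURKB) with its 3 partners INCENP, BIRC5 (survivin) and CDCA8 (borealin), which place it on centromeres and later on the midzone. In experiment 2, 1 of the 4 (BIRC5) was lower at an unadjusted p under 0.05, beside 6.36% of all genes, and 3 were below 0. BIRC5 was at 8.53, 8.30, 7.84 and 8.63 log2 CPM in Scr2 and at 7.30, 7.60, 7.90, 7.86 and 7.58 in Myc2. Scr2 replicate 3 was again the only Scr2 library within the Myc2 range, and the log2 difference was -0.68 (-1.11 to -0.24, limma adjusted p = 0.370, exact permutation p = 0.0238). INCENP, the scaffold, ranged in Scr2 from 4.66 in replicate 1 to 6.80 in replicate 2, with 6.001 and 5.61 in replicates 3 and 4, and in Myc2 it held 5.34, 6.11, 6.13, 6.38 and 5.42. Both the lowest and the highest library were Scr2 libraries, and the difference was 0.11 (-0.72 to 0.94). AURKB differed by -0.26 ± 0.25 (SE) and CDCA8 by -0.33 ± 0.25.

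In experiment 1 INCENP had the lowest difference of all members, -0.54 (-1.32 to 0.25, limma adjusted p = 0.996). Its Myc1 values were 5.39, 5.20 and 4.47 log2 CPM and its Scr1 values 5.998, 5.37, 4.61 and 6.22, with overlap through Scr1 replicates 2 and 3. BIRC5 was at 8.16, 7.73 and 7.93 in Myc1 and at 8.73, 7.94, 7.21 and 8.08 in Scr1, a difference of -0.05 ± 0.29 (SE). The Scr1 libraries bracketed the Myc1 libraries.

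The spindle checkpoint and the anaphase-promoting complex are represented by 7 members. BUB1, BUB1B, BUB3 and TTK sense unattached kinetochores, CDC20 and UBE2C work with the complex, and PTTG1 is the securin it destroys. All 7 were below 0 in experiment 2, with a median log2 difference of -0.40, and 4 (BUB3, TTK, CDC20 and PTTG1) were lower at an unadjusted p under 0.05, again beside 6.36% of all genes. In experiment 1, 4 of 7 were below 0 with a median of -0.01.

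PTTG1 had the smallest p of the 44 members in experiment 2. It was at 8.82, 8.55, 8.23 and 9.04 log2 CPM in Scr2 and at 7.57, 7.51, 7.84, 7.94 and 8.14 in Myc2. No Myc2 library reached the lowest Scr2 library, and the log2 difference was -0.86 (-1.30 to -0.42, limma adjusted p = 0.370, exact permutation p = 0.00794). Its experiment 1 values were 8.46, 8.15 and 8.73 in Myc1 and 8.81, 8.40, 7.75 and 8.17 in Scr1, a difference of 0.16 (-0.37 to 0.70). Those groups overlapped throughout.

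CDC20, the activator of the complex that the checkpoint restrains, was added after its values were seen. It was at 7.33, 8.005, 7.36 and 7.68 log2 CPM in Scr2 and at 6.63, 7.28, 7.15, 7.25 and 7.12 in Myc2. The groups were separate by a narrow gap between Myc2 replicate 2 and Scr2 replicate 1, and the difference was -0.51 (-0.93 to -0.08, limma adjusted p = 0.370). Experiment 1 gave -0.08 ± 0.31 (SE).

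The checkpoint protein BUB1B showed the spread of single libraries. In experiment 1 it was at 6.21, 6.18 and 5.39 log2 CPM in Myc1 and at 7.01, 6.78, 5.06 and 6.41 in Scr1, a difference of -0.39 (-1.33 to 0.55). In 3 Scr1 libraries it was above all Myc1 libraries and in Scr1 replicate 3 below all of them. In experiment 2 it was at 6.61, 7.87, 6.84 and 6.93 in Scr2 and 6.14, 6.41, 7.17, 7.06 and 6.54 in Myc2, a difference of -0.40 (-1.03 to 0.22), and Scr2 replicate 2 stood above the rest. TTK, the kinase that starts the checkpoint signal, differed by -0.55 ± 0.19 (SE) in experiment 2 and by -0.01 ± 0.38 in experiment 1. UBE2C differed by -0.16 ± 0.27 and 0.01 ± 0.37.

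The centromere and outer kinetochore group has 5 members, and its experiment 2 median, -0.55, was the lowest of the 7 role groups. CENPA, the histone H3 variant that marks centromeres, NUF2 and NDC80, which are partners in the complex that grips microtubules, were lower at an unadjusted p under 0.05 (3 of 5, beside 6.36% of all genes). CENPE, a kinetochore motor, and CENPF, a large kinetochore protein, were nearer to 0, at -0.14 ± 0.29 (SE) and -0.17 ± 0.31. Their transcripts are longer, at 8612 and 10307 bases, beside 1452 for CENPA, 1969 for NUF2 and 2172 for NDC80. This order depended on Scr2 replicates 1 and 4, described further on. Without them CENPE was at -0.74 and CENPF at -0.71, with CENPA at -0.30, NUF2 at -0.55 and NDC80 at -0.59. In experiment 1 the median was 0.20, with 4 of 5 above 0.

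NDC80 was at 7.31, 7.63, 7.09 and 7.63 log2 CPM in Scr2 and at 6.39, 6.28, 7.08, 7.20 and 6.93 in Myc2, a log2 difference of -0.64 (-1.14 to -0.15, limma adjusted p = 0.370, exact permutation p = 0.0397). Only Myc2 replicate 4 exceeded the lowest Scr2 library. Its partner NUF2 was at 6.43, 6.75, 6.10 and 6.42 in Scr2 and at 5.71, 5.25, 5.95, 6.41 and 6.05 in Myc2, a difference of -0.55 (-1.05 to -0.05, limma adjusted p = 0.370, exact permutation p = 0.0397). The same Myc2 library overlapped here.

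Both genes had differences above 0 in experiment 1. NDC80 was at 7.41, 6.80 and 6.76 log2 CPM in Myc1 and at 7.86, 7.17, 5.73 and 6.37 in Scr1, a difference of 0.20 (-0.79 to 1.20). NUF2 was at 6.22, 5.70 and 5.78 in Myc1 and at 6.50, 6.26, 4.83 and 4.94 in Scr1, a difference of 0.27 (-0.61 to 1.14). In each, Scr1 replicate 1 lay above all Myc1 libraries and Scr1 replicates 3 and 4 lay below them.

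Spindle motors and microtubule proteins form a group of 9. KIF11 slides the spindle poles apart, KIF2C takes microtubules apart at their ends, KIF4A, KIF20A and KIF20B are further motors, and TPX2, HMMR, NUSAP1 and DLGAP5 bind and organise microtubules. In experiment 2, 8 of 9 were below 0 with a median log2 difference of -0.36, and KIF2C and DLGAP5 were lower at an unadjusted p under 0.05 (2 of 9, beside 6.36% of all genes). In experiment 1, 6 of 9 were above 0 with a median of 0.17.

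KIF2C was at 6.80, 7.32, 6.67 and 7.07 log2 CPM in Scr2 and at 5.93, 6.41, 6.71, 6.61 and 6.49 in Myc2, a log2 difference of -0.53 (-0.96 to -0.10, limma adjusted p = 0.370, exact permutation p = 0.0238). Scr2 replicate 3 and Myc2 replicate 3 were the libraries that overlapped. Its experiment 1 values were 6.77, 6.53 and 6.41 in Myc1 and 7.07, 6.44, 5.49 and 6.57 in Scr1, a difference of 0.17 (-0.49 to 0.83).

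HMMR, a hyaluronan receptor that also acts at spindle poles, went its own way. In experiment 1 it was at 5.27, 5.66 and 4.90 log2 CPM in Myc1 and at 3.98, 5.65, 4.29 and 4.03 in Scr1. It was lowest in Scr1 replicate 1, the library in which 28 of the 44 members were highest. The difference, 0.79 (-0.02 to 1.59, limma adjusted p = 0.996, exact permutation p = 0.143), was the highest of the members, and Scr1 replicate 2 kept the groups overlapping. In experiment 2 HMMR was at 5.07, 6.07, 5.83 and 5.37 in Scr2 and at 5.35, 5.77, 5.53, 6.05 and 6.10 in Myc2, a difference of 0.17 (-0.35 to 0.69).

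The 4 genes of the midzone and of cytokinesis are KIF23, a motor that bundles midzone microtubules, PRC1, which crosslinks them, ECT2, which activates RhoA at the cell equator, and ANLN (anillin), a scaffold of the contractile ring. All 4 were below 0 in both experiments, with medians of -0.36 in experiment 2 and -0.20 in experiment 1, and none had an unadjusted p under 0.05 in either, beside 6.36% and 1.52% of all genes lower at that p. PRC1 was at 7.95, 8.85, 8.16 and 8.18 log2 CPM in Scr2 and at 7.41, 7.71, 8.08, 8.07 and 7.97 in Myc2, a difference of -0.44 (-0.91 to 0.04). Scr2 replicate 1 lay within the Myc2 range. In experiment 1 PRC1 was at 7.96, 7.85 and 7.12 in Myc1 and at 8.60, 8.25, 6.41 and 8.08 in Scr1, a difference of -0.19 (-1.31 to 0.92). Scr1 replicate 3 was the lowest library and the other 3 Scr1 libraries were the highest.

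ECT2 had the lowest p of this group in experiment 1. Its Myc1 values were 6.31, 5.98 and 4.85 log2 CPM and its Scr1 values 6.56, 6.72, 5.12 and 6.39, a difference of -0.48 (-1.43 to 0.47, limma adjusted p = 0.996). Myc1 replicate 3 was lowest, followed by Scr1 replicate 3, and the other 3 Scr1 libraries were highest. In experiment 2 it was at 6.72, 7.46, 7.11 and 6.73 in Scr2 and at 6.71, 6.28, 7.04, 7.18 and 6.53 in Myc2, a difference of -0.25 (-0.75 to 0.24).

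The last group holds 5 members: TOP2A, the topoisomerase that untangles sister DNA, MKI67, which coats mitotic chromosomes and keeps them apart, CDCA2, which brings a phosphatase to chromatin, CDCA3, which promotes the destruction of WEE1, and FAM64A, also called PIMREG, a mitotic protein that binds clathrin assembly protein. Its median was -0.14 in experiment 2, the nearest to 0 of the role groups, and 0.04 in experiment 1. FAM64A alone of the 5 was lower at an unadjusted p under 0.05 in experiment 2 (6.36% of all genes), at 6.13, 6.04, 5.56 and 6.28 log2 CPM in Scr2 and at 4.80, 5.08, 5.29, 5.31 and 5.45 in Myc2. The groups did not overlap, and the log2 difference was -0.81 (-1.24 to -0.39, limma adjusted p = 0.370, exact permutation p = 0.00794). In experiment 1 it was at 5.78, 5.36 and 5.98 in Myc1 and at 5.97, 5.26, 4.96 and 5.98 in Scr1, a difference of 0.16 (-0.45 to 0.77).

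MKI67, the clinical proliferation marker, had the widest interval of the members in experiment 2. The Scr2 libraries held 8.45, 10.54, 9.66 and 8.35 log2 CPM and the Myc2 libraries 8.67, 9.56, 9.80, 9.97 and 8.58, a difference of 0.07 (-0.94 to 1.08, limma adjusted p = 0.949). Scr2 replicate 2 was the highest library of the table, and Scr2 replicates 1 and 4 were the lowest. For experiment 1 it was at 8.66, 8.58 and 7.82 in Myc1 and at 9.40, 9.04, 7.37 and 9.21 in Scr1, a difference of -0.40 (-1.47 to 0.66). TOP2A lay close to 0 in both experiments, with -0.07 ± 0.30 (SE) and 0.04 ± 0.34.

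**Figure D2:**
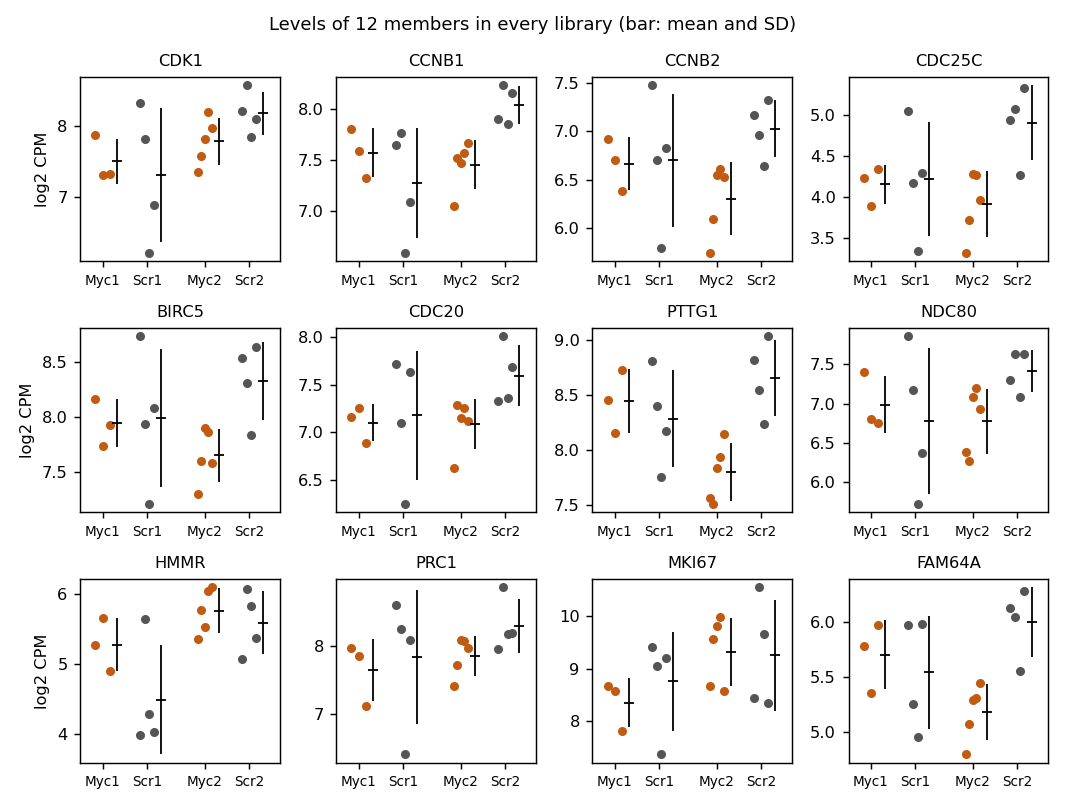
Level of 12 members in every library in log2 CPM (vertical axes, not starting at 0), with MYC siRNA libraries in orange, scramble libraries in grey and the group mean ± SD beside them; the 2 tables were normalized apart. In experiment 2 CCNB1, CCNB2, CDC20, PTTG1 and FAM64A show no Myc2 library above the lowest Scr2 library, while in experiment 1 the Scr1 libraries spread around the Myc1 libraries in most panels.

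Across libraries most members moved together. In experiment 1 their mean was 6.89, 6.58 and 6.30 log2 CPM in Myc1 replicates 1 to 3 and 7.24, 6.85, 5.68 and 6.68 in Scr1 replicates 1 to 4, so the group means, 6.59 ± 0.29 (SD, n = 3) and 6.62 ± 0.66 (SD, n = 4), were close while Scr1 held both the highest and the lowest library. Scr1 replicate 1 was highest for 28 members and Scr1 replicate 3 lowest for 40. How many of all genes were highest or lowest in each library was not determined, so such counts have no background share beside them. The latter is the library of least depth, with 8.81% of all genes at its lowest value. The part of depth in its member levels was not tested.

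The experiment 1 result turned on these libraries. Without Scr1 replicate 3 the members' median became -0.34 (all genes -0.0107), 38 of 44 were below 0, and 9 had an unadjusted p under 0.05 (beside 3.50% of all genes), with a lowest limma adjusted p of 0.663. These 9 were CCNF, CDC25B, PLK1, FOXM1, INCENP, BUB1B, PRC1, ECT2 and MKI67, of which 0 were among the 16 of experiment 2, and 8 of the 9 belonged to the longer transcripts described further on. Without Scr1 replicate 1 the median became 0.21, with 10 members below 0.

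In experiment 2 the mean of the members was 6.43, 6.75, 6.97, 7.17 and 6.85 log2 CPM in Myc2 replicates 1 to 5 and 6.95, 7.66, 7.04 and 7.13 in Scr2 replicates 1 to 4. Group means were 6.83 ± 0.28 (SD, n = 5) and 7.20 ± 0.32 (SD, n = 4), and the ranges overlapped. Scr2 replicate 2 was highest for 34 of 44 members and Myc2 replicate 1 lowest for 28, again without a background share over all genes.

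Without Scr2 replicate 2 the median came to -0.14, with 35 members below 0. In that fit 10 had an unadjusted p under 0.05, beside 14.0% of all genes, and the lowest limma adjusted p of a member was 0.108. Without Myc2 replicate 1 the median was -0.27, and 10 members remained at that p, beside 4.09% of all genes. In both cases the 10 belonged to the 16 found with all libraries. Whichever of the 9 libraries was left out, 9 members (20.5%) stayed lower at an unadjusted p under 0.05, beside 1.36% of the 13943 genes tested each time: CCNB1, CCNB2, CCNA2, CDC25C, BIRC5, TTK, PTTG1, NDC80 and FAM64A. All of these except TTK belonged to the shorter transcripts described further on, and 10.9% of all shorter genes were lower at that p with all 9 libraries. With Scr2 replicates 1 and 4 both left out, CCNB2, BIRC5 and NDC80 had unadjusted limma p of 0.075, 0.072 and 0.063.

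**Figure D3:**
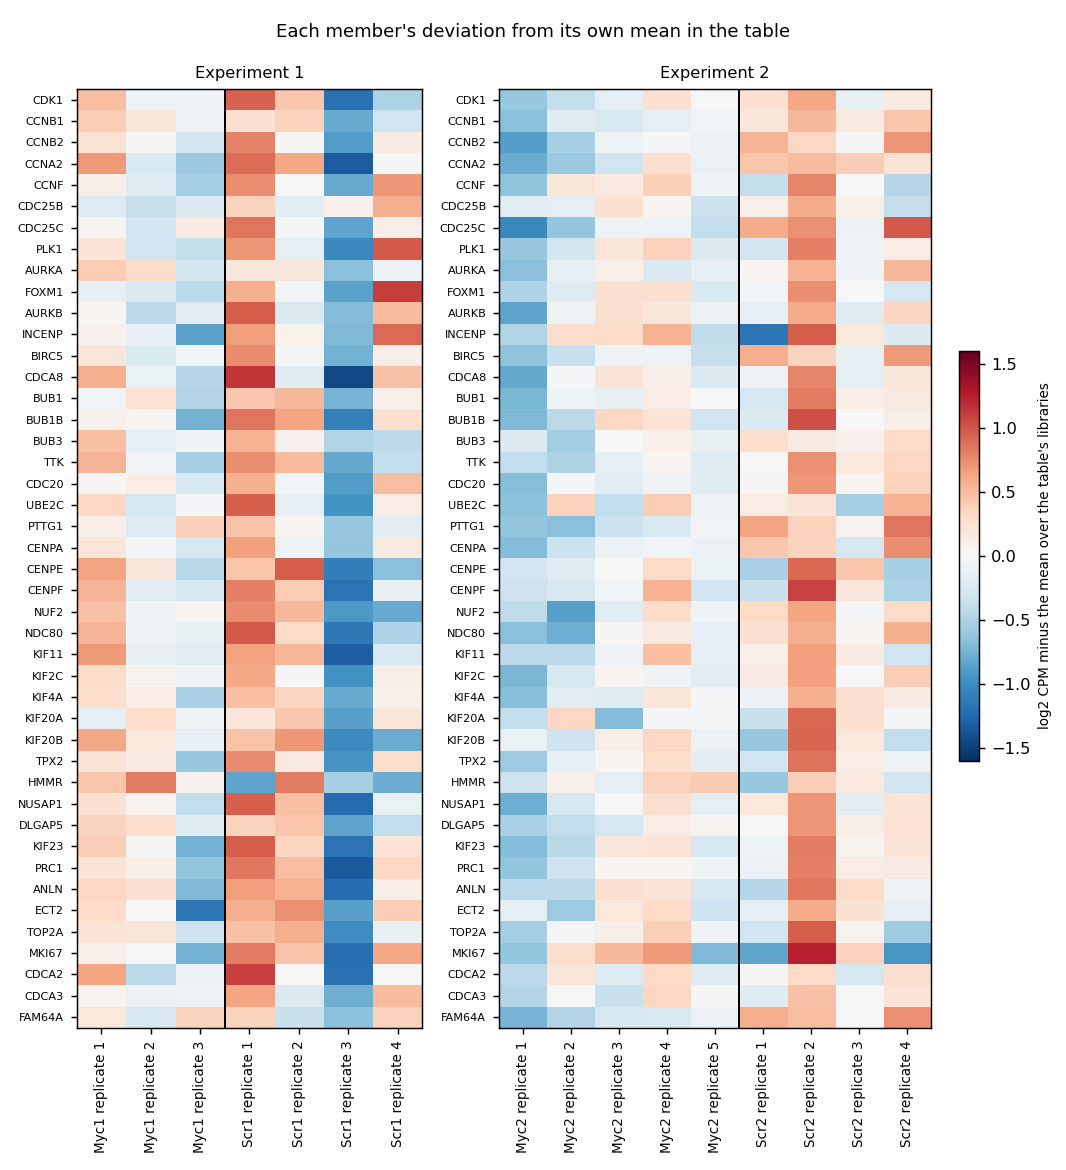
Deviation of each member (vertical, ordered by role) from its own mean over the libraries of its table, in log2 CPM, for the 7 libraries of experiment 1 and the 9 of experiment 2; the black line divides MYC siRNA from scramble libraries. Several columns take mostly 1 colour: Scr1 replicate 3 is lowest for 40 members, Scr2 replicate 2 highest for 34 and Myc2 replicate 1 lowest for 28. HMMR departs from the others in Scr1 replicate 1. The same shares over all genes were not determined.

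Members with shorter and longer transcripts did not behave alike in experiment 2. The members were divided at 3151.5 bases, the median length of their longest protein-coding transcript, into 22 shorter and 22 longer ones. The shorter members had a median log2 difference of -0.52, with 14 of 22 at an unadjusted p under 0.05, and the longer -0.25, with 2 of 22. Over all genes the same division gave medians of -0.19 for 5445 shorter and 0.10 for 6632 longer genes, and 10.9% and 2.58% of them were lower at that p. Over the 44 members, Spearman's rho between length and difference was 0.58, and over the 12077 genes with a length (85.0% of those tested) it was 0.40. Genes of 1 library share its preparation and are not independent, so these values carry no p.

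The sign of this dependence turned on Scr2 replicates 1 and 4, a pair that stands out by these same length values. The mean of the longer members exceeded that of the shorter by 0.34 to 0.68 log2 units in the other 7 libraries of experiment 2, and by -0.00444 and -0.13 in Scr2 replicates 1 and 4. Those libraries also had the lowest rho between length and deviation over all genes, -0.44 and -0.56, beside -0.22 to 0.47 in the others. Scr2 replicate 4 was also the library of least depth in its table.

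Without both of them the longer members were the lower ones. Their median log2 difference became -0.60, with 22 of 22 below 0 and 10 at an unadjusted p under 0.05, while that of the shorter members was -0.49, with 8 at that p. Over all genes the medians were then -0.05 and 0.00833. The rho over the members became -0.28, and over all genes -0.15. For all 44 members the median was -0.55, with 43 below 0 and 18 at an unadjusted p under 0.05, beside 1.47% of all genes, and a lowest limma adjusted p of 0.999.

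Of these 18, 9 belonged to the 16 of the full comparison (CCNB1, CCNA2, CDC25C, TTK, CDC20, PTTG1, KIF2C, DLGAP5 and FAM64A). The other 9 were BUB1, CENPE, CENPF, KIF4A, KIF20A, KIF20B, TPX2, PRC1 and ANLN. MKI67, with the longest transcript of the members, went from 0.07 to -0.78, and INCENP from 0.11 to -0.52. With 2 Scr2 libraries left, that comparison rests on Scr2 replicates 2 and 3, and replicate 2 held the highest mean of the members.

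**Figure D4:**
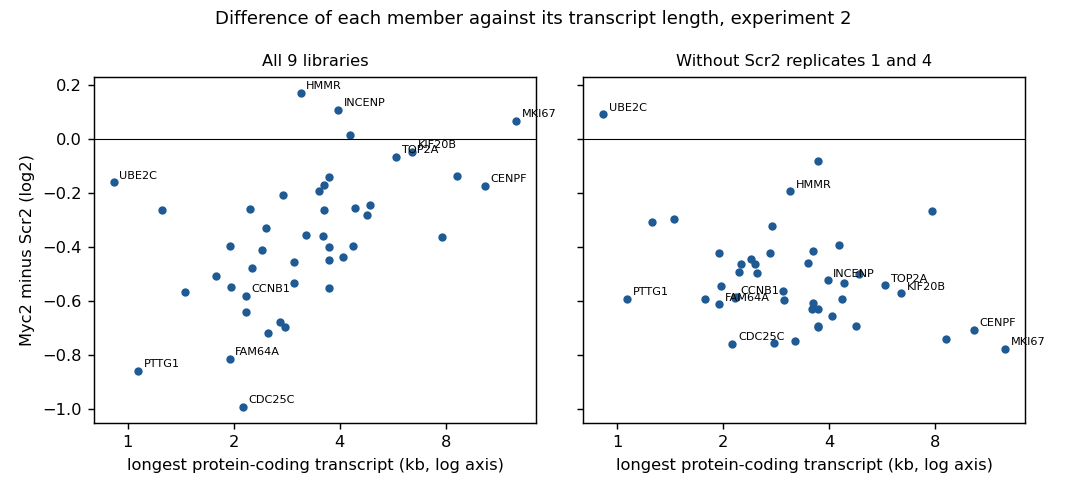
Log2 difference of each member in experiment 2, Myc2 minus Scr2, against the length of its longest protein-coding transcript in kb (log axis), with all 9 libraries (left) and without Scr2 replicates 1 and 4 (right). On the left the differences approach 0 with length (rho 0.58 over 44 members) and MKI67 lies at 0.07, and on the right the longer members are the lower ones (rho -0.28) and MKI67 lies at -0.78.

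**Figure D5:**
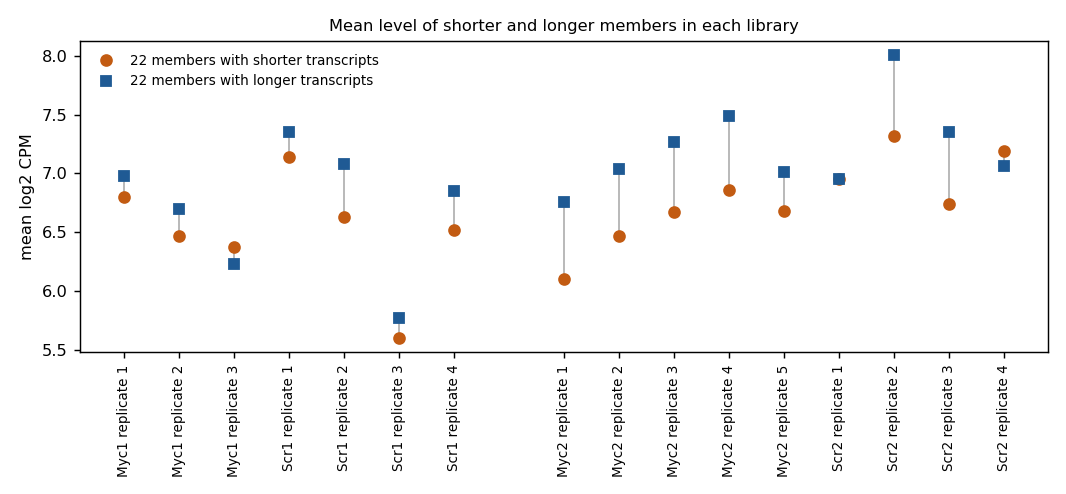
Mean log2 CPM of the 22 shorter (orange circles) and the 22 longer members (blue squares) in each of the 16 libraries; the vertical axis does not start at 0 and the tables were normalized apart. In Scr2 replicates 1 and 4 the difference is -0.00444 and -0.13, while in the other libraries of experiment 2 it is 0.34 to 0.68.

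In experiment 1, with all libraries, the shorter members had a median log2 difference of 0.00984 and the longer -0.11, with a rho of -0.16 over the members and -0.19 over all genes. Longer members exceeded shorter ones by -0.15 log2 units in Myc1 replicate 3 and by up to 0.45 in Scr1 replicate 2. Without Scr1 replicate 3, the library of least depth, the medians were -0.29 for the shorter and -0.46 for the longer members. In that comparison 1 of 22 shorter members was lower at an unadjusted p under 0.05, beside 1.495% of all shorter genes, and 8 of 22 longer ones, beside 5.18% of all longer genes. The rho was then -0.22 over the members and -0.28 over all genes.

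Whether the effect on the members differed between the experiments was tested in 1 fit over the 4 groups, as the effect in experiment 1 minus that in experiment 2. Each siRNA was used in 1 experiment only, so a difference between siRNAs and one between experiments cannot be told apart. The median over the members was 0.35 (all genes 0.0190), with 36 of 44 above 0. Limma called 0 members and 0% of all 13656 genes, of which 1195 had an unadjusted p under 0.05. At an unadjusted p under 0.05, 4 members (9.09%) were above 0, beside 4.12% of all genes. These were PTTG1 with a log2 difference of effects of 1.02 ± 0.33 (SE), FAM64A with 0.98 ± 0.35, CCNB1 with 0.88 ± 0.33 and AURKA with 0.71 ± 0.33, each with a limma adjusted p of 0.528. The median was 0.03 when Scr1 replicate 3 was left out, 0.15 for Scr2 replicate 2 and 0.18 for Myc1 replicate 1, and it was 0.57 for Myc1 replicate 3 and 0.55 for Scr1 replicate 1.

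The differences were also set beside the promoter elements. In experiment 2 the 26 members with a match to the CHR letters had a median log2 difference of -0.35. Of these 26, 6 were lower at an unadjusted p under 0.05, beside 6.36% of all genes. The 9 without a match had a median of -0.53, with 5 lower at that p. In experiment 1 the medians were -0.07 and 0.03. A promoter without these letters in the window searched may still hold a CHR of other letters or at another start. The 9 are therefore not shown to lack one. Of the 3 printed promoters with a CHR, that of CCNB2 belongs to a member with a difference of -0.72 ± 0.22 (SE) in experiment 2, and those of PLK1 and MKI67 to members with -0.26 ± 0.26 and 0.07 ± 0.46.

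Other cell cycle genes were taken from further lists, also chosen with earlier results of these data known. Of 56 other G2/M and mitosis genes, 49 were below 0 in experiment 2 with a median of -0.36 (51.8% of all genes were below 0), and 20 were lower at an unadjusted p under 0.05, beside 6.36% of all genes. CENPN, a centromere protein, had a log2 difference of -1.13 ± 0.30 (SE) and SKA3, of the kinetochore, of -0.81 ± 0.23. In experiment 1, 32 of the 56 were below 0 with a median of -0.05, and ESPL1, the separase, and NCAPH, a condensin subunit, had -0.55 ± 0.28 and -0.50 ± 0.27. Genes of G1/S and replication lay below 0 in both experiments: 42 of 48 in experiment 2 (median -0.33, 10 lower and 1 higher at an unadjusted p under 0.05, beside 6.36% and 7.00% of all genes) and 35 of 48 in experiment 1 (median -0.16, none at that p, with 50.5% of all genes below 0). The thymidine kinase TK1 and the clamp loader subunit RFC3 had the smallest p in experiment 2, with -0.71 ± 0.18 and -0.66 ± 0.20, and the helicase subunit MCM2 and the kinase CDK2 in experiment 1, with -0.53 ± 0.27 and -0.39 ± 0.22. The limma adjusted p was 0.370 for each gene named here in experiment 2 and 0.996 in experiment 1.

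Genes that restrain the cycle lay nearer to balance. Of 17 inhibitors and antiproliferative genes 15 were tested in each experiment, 9 above 0 in experiment 1 and 8 in experiment 2. RBL2, the p130 pocket protein of the DREAM repressor, and CCNG2, cyclin G2, had differences of 0.83 ± 0.30 (SE) and 0.47 ± 0.20 in experiment 2, the only 2 of this list with an unadjusted p under 0.05 (7.00% of all genes were higher at that p). GAS1 and BTG1, growth arrest genes, had 0.85 ± 0.40 and 0.46 ± 0.25 in experiment 1. Of 15 DREAM and MuvB regulators 9 were below 0 in experiment 2 and 11 in experiment 1 (51.8% and 50.5% of all genes), with medians of -0.03 and -0.09. LIN9, a core MuvB subunit, had -0.87 ± 0.29 in experiment 2, and TFDP2 and TFDP1, partners of E2F factors, had -0.51 ± 0.29 and -0.39 ± 0.22 in experiment 1.

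Subunits of the anaphase-promoting complex and mitotic phosphatases, 24 genes, had a median log2 difference of -0.21 in experiment 2, with 18 below 0 (51.8% of all genes) and 4 lower at an unadjusted p under 0.05 (6.36% of all genes). MASTL, the Greatwall kinase, and its substrate ENSA, which together restrain a phosphatase that opposes CDK1, had -0.66 ± 0.25 (SE) and -0.47 ± 0.20. In experiment 1 the median was 0.03, and FZR1, the other activator of the complex, and ANAPC11, its catalytic subunit, had -0.41 ± 0.27 and 0.33 ± 0.23. The limma adjusted p was 0.370 for MASTL and ENSA and 0.996 for FZR1 and ANAPC11.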

How the data were processed

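RNA from 16 tumours was sequenced on Illumina NextSeq, as the labels' protocols state. The submitters' processing notes name bcl2fastq 2.20.0, STAR 2.6.0b, Picard and the builds hg19 and mm10, without roles. How genes were counted, and whether mouse reads were set apart, is not stated there. From this, the authors deposited 1 table of log2 values for each experiment. The unit was read from the values: taken back from log2 they summed to 998367 to 998392 CPM in experiment 1 and 995054 to 995076 in experiment 2. Between 0.78% (Myc2 replicate 3) and 8.81% (Scr1 replicate 3) of genes were tied at a library's lowest value. Apart from such ties the sorted values were nearly the same in every library of a table, so they were read as quantile-normalized log2 CPM. This hides any change in total RNA, and levels were compared only within a table.

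Each comparison was fitted with limma 3.58.1 (R 4.3.3, trend and robust settings) on genes with at least 1 CPM in 3 (experiment 1) or 4 (experiment 2) libraries, adjusted by Benjamini-Hochberg over all of them (threshold 0.05). The fit was tested on simulated data. Single genes were also tested by exact two-sided permutation, with smallest p of 0.0286 (35 arrangements) and 0.00794 (126). P-values measure the spread between mice of 1 experiment. Depth was estimated from the spacing of low values and was off by at most 5.37% on simulated counts. The simulated libraries shared their gene means apart from the genes changed on purpose. In the real libraries the slope of that spacing, assumed to be 1, ran from 0.88 (Scr2 replicate 4) to 1.19 (Myc2 replicate 3). The error there may therefore be larger. Transcript lengths come from GENCODE v29 (GRCh38), matched by Ensembl identifier, and promoters from RefSeq (GRCh38.p14). The members and lists were chosen with earlier results of these data known. Members given library by library were, in each role group, those with the smallest p in each experiment, with MKI67, CDK1 and CCNB1 added; of other lists the 2 genes of smallest p were named. CCNB2 and CDC20, and the promoters of CCNB2 and PLK1, were added after their values were seen, and MKI67's promoter was chosen for its elements.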

Additional observations from a re-analysis of the deposited data

How the results depend on the processing

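No member was called by limma under any alternative run. The scale was log2(CPM + 1) or log2(CPM + 0.1), and the filter none or at least 5 CPM. Other runs had no trend, library weights or centred libraries, or were 1 fit over the 4 groups. Each library was left out in turn. Scr2 replicates 1 and 4, a pair that stands out by its length values in these same data, were also left out together. Trends on transcript length or GC content were removed as well, runs chosen after seeing the data. The median in experiment 2 was -0.34 with the length trend and -0.31 with the GC trend removed, and -0.46 to -0.14 with 1 library left out; in experiment 1 it was -0.34 to 0.21. The median difference between the effects was 0.03 to 0.57. Of the counts at an unadjusted p under 0.05, lower members in experiment 2 numbered 9 in 1 fit over the 4 groups and 10 to 18 with 1 library left out. Lower members in experiment 1 numbered 1 with library weights, centred libraries or the GC trend removed, and 0 to 9 with 1 library left out. Higher members there numbered 1 at 5 CPM, with the length trend removed or in 1 fit over the 4 groups, and 0 to 1 with 1 library left out.

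With 1 library left out, differences of either sign were seen in experiment 1 for BIRC5 (-0.31 to 0.20), CDC25C (-0.36 to 0.21), PRC1 (-0.67 to 0.068), CDK1 (-0.18 to 0.53), PTTG1 (-0.014 to 0.34), NUF2 (-0.00263 to 0.56), NDC80 (-0.15 to 0.56), KIF2C (-0.13 to 0.40) and FAM64A (-0.032 to 0.34), and in experiment 2 for INCENP (-0.26 to 0.45), MKI67 (-0.23 to 0.50) and HMMR (-0.00119 to 0.33). BIRC5 in experiment 1 was at 0.0190 with the GC trend removed. In experiment 2 library weights gave -0.14 for INCENP and -0.35 for MKI67, and removing the length trend gave -0.17 for MKI67. Leaving out Scr2 replicates 1 and 4 gave -0.52 for INCENP, -0.19 for HMMR and -0.78 for MKI67. The cause of these changes was not tested. No paired analysis was possible because the labels give no replicate numbers shared between groups. Depth was lowest in Scr1 replicate 3. In experiment 1, 38 of 44 members were below 0 without that library, and 10 of 44 were without Scr1 replicate 1. The part of depth in these counts was not tested. No library was flagged by Dixon's test in 51 groups of values of members printed library by library and of the mean of the members. Those 51 do not include every group of these values. With so few libraries in a group the test can hardly flag any, so it does not show that no library stood apart. Scr1 replicate 3 was the lowest library of its table for 40 of 44 members.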
